A study of Mus musculus with 6 samples.

Results

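The miRNAs described here come from the hairpins Mir532, Mir188, Mir362, Mir501 and Mir500, which lie together in an intron of Clcn5 on the mouse X chromosome. The 8 members, mmu-miR-532-5p, mmu-miR-532-3p, mmu-miR-362-5p, mmu-miR-362-3p, mmu-miR-500-3p, mmu-miR-501-3p, mmu-miR-501-5p and mmu-miR-188-5p, were chosen by their names in a count table of 1982 rows whose read counts were already known. Their levels are therefore given as a description, and the p-values beside them are those of a fit over the whole table. Of the 8 members, 6 had at least 1 count in some mouse, 2 had 0 counts in every mouse, and 2 had enough counts to be tested between groups.

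Small RNA was sequenced from serum exosomes, which are vesicles that cells release into the blood. The donors were 6 male C57BL/6 mice aged 3 months. The 3 Acu/LFES mice (mice 4, 5 and 6) received a single 30 min session of electrical stimulation through needles at acupuncture points of the hindlimb, and the 3 sham mice (mice 1, 2 and 3) had needles placed near those points without current. All mice were awake and restrained, and each gave its own library. Serum holds vesicles from many tissues, so more vesicles of a given source and more of a miRNA in each vesicle cannot be told apart. The question was whether cluster mates, and the arms of each hairpin, go up and down together from mouse to mouse and between the groups.

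Clustered miRNAs are usually transcribed as a single primary RNA, which Drosha cuts into hairpins and Dicer trims into a short duplex. Either strand of the duplex, the 5p arm or the 3p arm, can be loaded into an Argonaute protein, where bases 2 to 8 (the seed) pair with target mRNAs. Cluster mates share their transcription, but the amount of each mature arm also depends on processing, loading and decay. Clcn5, the host gene, encodes an endosomal chloride/proton exchanger of the kidney proximal tubule. miR-501 has been studied in activated muscle precursor cells, and miR-188 in the fate choice of bone marrow stromal cells.

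In GRCm38, Clcn5 lies on the minus strand of chromosome X from 7153810 to 7319358 (GENCODE M21). The 5 hairpins have the same positions in RefSeq and GENCODE and span 10815 bases. In the direction of transcription, Mir532 comes first (X, 7248402 to 7248497). Mir188 follows 441 bases after the start of Mir532 (X, 7247989 to 7248056), and Mir362 6451 bases after it (X, 7241982 to 7242046). Mir501 lies 7146 bases after it (X, 7241243 to 7241351) and Mir500 10723 bases after it (X, 7237683 to 7237774). All 5 lie in the same intron of 103648 bases, the third intron of a coding transcript with 15 exons. They overlap no exon of the 3 Clcn5 transcripts that span them.

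Mature sequences of 7 of the 8 members were taken from RefSeq (GRCm38.p6). The exception was miR-532-5p, the member with most reads. No mature sequence of it was found there, so its seed was not compared with other rows. The other members with reads are shown first, because the results below turn on which of them were counted. The seed is in capitals.
miR-532-3p: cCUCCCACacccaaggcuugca
miR-362-3p: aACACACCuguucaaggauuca
miR-188-5p: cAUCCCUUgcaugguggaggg
miR-500-3p: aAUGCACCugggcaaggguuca
miR-501-3p: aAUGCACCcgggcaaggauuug
The 5p arms of Mir362 and Mir501, which had 0 counts in every mouse, are shown for comparison.
miR-362-5p: aAUCCUUGgaaccuaggugugaau
miR-501-5p: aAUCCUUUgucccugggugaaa

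miR-500-3p and miR-501-3p have the same seed and differ at 4 of 22 positions, written from miR-500-3p to miR-501-3p and counted from 1 at the 5′ end as U9C, G18A, C21U and A22G. Reads with an error or a trimmed end could therefore be shared between these members, and the mismatches allowed in the counting are not given in the sources used here. miR-362-5p and miR-501-5p begin with the same 7 bases. Outside the cluster, miR-362-3p shares its seed with miR-329-3p, which had 0 counts in every mouse, and miR-188-5p shares its seed with miR-7061-3p, which had 1 count in mouse 5 and 0 in the other mice. The seed of miR-532-3p was shared with no other row of the table.

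Library totals ranged from 391708 to 658833 counts in sham mice and from 517421 to 1504137 in Acu/LFES mice. TMM, a scaling that trims miRNAs with extreme ratios or levels, gave effective libraries of 302000 to 692237 counts in sham mice and 479950 to 1667428 in Acu/LFES mice. CPM below means counts scaled to an effective library of 1000000. Mouse 6 stood apart, with a TMM factor of 2.12. The red-cell miRNAs miR-486a-5p and miR-486b-5p held 29.2% of its counts, against 61.7% to 74.0% in the other mice. Their rows hold the same count in each mouse. The row of miR-486a-5p alone took 14.6% in mouse 6 and 30.9% to 37.0% in the other mice. The lists of marker miRNAs for red cells, white cells and platelets, endothelium, liver, and skeletal and cardiac muscle hold 21 miRNAs. The summed CPM of each list, with rows of identical counts entered a single time, overlapped between the groups. That of red cells was 301336 to 603182 in sham mice, 312240 and 531566 in mice 4 and 5, and 94671 in mouse 6. In the muscle list miR-208a-3p was at 0. miR-499-5p, another muscle marker with too few counts to be tested, was at 0 in each sham mouse and at 30.6 CPM, 0 CPM and 18.3 CPM in Acu/LFES mice 4, 5 and 6. The 3 muscle markers tested were not higher with Acu/LFES. Their log2 fold changes over sham were -0.01 for miR-1a-3p, -0.04 for miR-133a-3p and -0.77 for miR-206-3p. Among the 18 markers tested, 0 reached an unadjusted p of 0.05 in edgeR (quasi-likelihood test).

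Together the members had 111, 67 and 57 counts in sham mice 1, 2 and 3 and 632, 210 and 294 in Acu/LFES mice 4, 5 and 6. Their summed level was 160 CPM, 157 CPM and 189 CPM with sham and 379 CPM, 438 CPM and 269 CPM with Acu/LFES. Each Acu/LFES mouse was above each sham mouse. The mean was 169 ± 17.6 CPM for sham against 361.8 ± 85.7 CPM for Acu/LFES (n = 3 a group, SD), a difference of 1.08 on the scale of log2(CPM + 0.5). With total counts in place of TMM the difference was 1.64. No p is given for this sum, because its members were chosen with the counts known.

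miR-532 made up 89.2% of the 1371 member counts, so the sum is largely a measure of this hairpin. Its 5p arm alone took 79.3%, 89.6% and 50.9% of the member counts in sham mice 1, 2 and 3 and 79.1%, 72.4% and 70.1% in Acu/LFES mice 4, 5 and 6. The share in mouse 3 had the widest interval, 38.3% to 63.4% (Wilson, 95%), on 57 counts. Intervals of this kind cover counting error only, since PCR copies of a molecule are counted as separate reads.

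**Figure D1:**
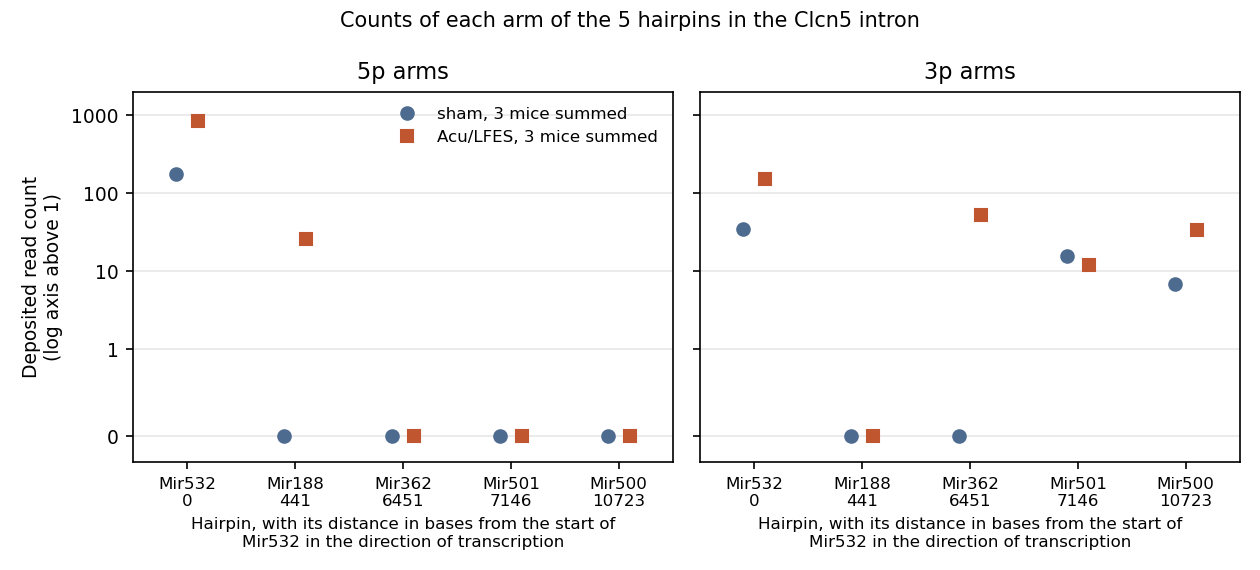
Deposited read counts (vertical axis, logarithmic above 1) of the 5p arms (left) and 3p arms (right), summed over the 3 sham mice (circles) and the 3 Acu/LFES mice (squares). Hairpins are in the order of transcription, with the distance from Mir532 in bases under each name. Mir532 had counts on both arms, Mir188 on the 5p arm with 26 counts, and Mir362, Mir501 and Mir500 on the 3p arm with 53, 28 and 41 counts.

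The arm with more counts differed along the cluster. miR-532-5p had 1035 counts over the 6 mice and miR-532-3p had 188. Mir188 was counted on its 5p arm, with 26 counts of miR-188-5p and 0 of miR-188-3p. The 3 hairpins farther downstream were counted on the 3p arm instead, with 53 counts of miR-362-3p, 28 of miR-501-3p and 41 of miR-500-3p. miR-362-5p, miR-501-5p and miR-500-5p had 0 counts in each of the 6 mice. A count of 0 is not proof of absence. Set against the count of the other arm, it allows a 5p arm of up to 5.66% for Mir362, 7.32% for Mir500 and 10.7% for Mir501, and a 3p arm of up to 11.5% for Mir188, taking 3 counts as the limit. This limit covers counting error only. In the whole table, 1028 rows (51.9%) had 0 counts in every mouse. Of the 10 rows from these hairpins, 4 did.

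miR-532-5p was the most counted arm of the cluster and ranked 98 of the 259 tested miRNAs by mean CPM. It had 88, 60 and 29 counts in sham mice 1, 2 and 3 and 500, 152 and 206 in Acu/LFES mice 4, 5 and 6. As CPM these were 127, 140 and 96.0 with sham and 300, 317 and 188 with Acu/LFES. The groups did not overlap, and the lowest Acu/LFES mouse was mouse 6, the library that stood apart. The mean was 121 ± 22.7 CPM for sham against 268.3 ± 69.7 CPM for Acu/LFES (n = 3 a group, SD), or 2.21 times as high. The log2 fold change of Acu/LFES over sham was 1.14 with a standard error of 0.39. Its unadjusted p was 0.0160 and its adjusted p 0.429 in edgeR's quasi-likelihood test, adjusted by Benjamini and Hochberg's method over the 259 miRNAs.

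The call of miR-532-5p depended on the test. edgeR called 0% of the tested miRNAs at an adjusted p under 0.05, with 23 at an unadjusted p under 0.05, and so called 0 members. With DESeq2, fitted on the same miRNAs with its own scaling, the adjusted p of miR-532-5p was 0.0496, with a log2 fold change of 1.13, and DESeq2 called 9 miRNAs in all. That value sat at the threshold. It was 0.0532 when DESeq2's own filter was set for a threshold of 0.1, and 0.0838 with that filter off, both chosen after seeing the data. The log2 fold change was positive in each alternative run. Without mouse 6 the log2 fold change was 1.38, and with any one mouse left out it went from 1.04 to 1.38, with an unadjusted p from 0.0111 to 0.0482 in edgeR.

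miR-532-5p was the only one of the 2 tested members at an unadjusted p under 0.05, and the only one whose groups did not overlap. Among all tested miRNAs, 5.79% were higher at that level, and 8.88% had each Acu/LFES mouse above each sham mouse. The 1 of 2 tested members in either count can be read against these shares. The median log2 fold change of the 259 miRNAs was 0.050, and 23 of them had a larger log2 fold change than miR-532-5p.

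**Figure D2:**
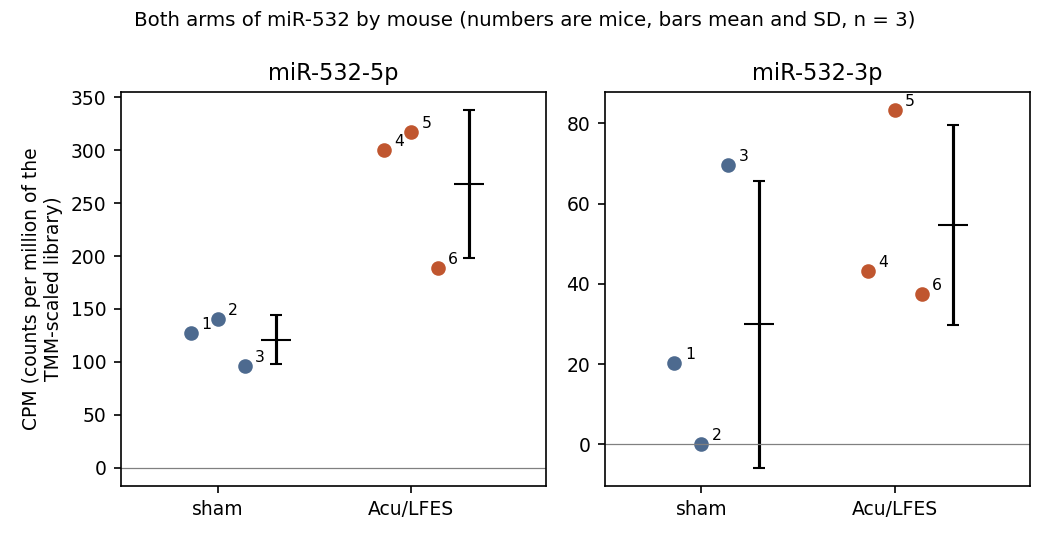
CPM of miR-532-5p (left) and miR-532-3p (right) in each mouse, numbered, with the mean and SD of each group beside the points (n = 3 each). The 3 Acu/LFES mice lie at 188 to 317 CPM of miR-532-5p, above the sham mice at 96.0 to 140 CPM, while the groups overlap for miR-532-3p.

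miR-532-3p, the other arm of the same hairpin, did not separate the groups. It had 14, 0 and 21 counts in sham mice 1, 2 and 3 and 72, 40 and 41 in Acu/LFES mice 4, 5 and 6. The levels were 20.2 CPM, 0 CPM and 69.5 CPM with sham and 43.2 CPM, 83.3 CPM and 37.5 CPM with Acu/LFES. Sham mouse 3 was above both Acu/LFES mice 4 and 6. The log2 fold change was 0.90 with a standard error of 1.17 (adjusted p = 0.840 in edgeR's quasi-likelihood test). It rested on single sham mice. Without mouse 3 it was 2.32, and without mouse 2 it was 0.29.

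Within a library, miR-532-5p exceeded miR-532-3p in each mouse. The 5p arm took 86.3%, 100% and 58.0% of the hairpin's counts in sham mice 1, 2 and 3 and 87.4%, 79.2% and 83.4% in Acu/LFES mice 4, 5 and 6. Sham mouse 2 lay above and sham mouse 3 below the narrow range of the Acu/LFES mice, and sham mouse 1 lay within it. In mouse 3 the interval of the share was 44.2% to 70.6% and in mouse 2 it was 94.0% to 100% (Wilson, 95%). These mice were the extremes of the 6, and the intervals cover counting error only. On the log2 scale the ratio of the arms was 3.33 ± 3.29 for sham against 2.34 ± 0.44 for Acu/LFES (n = 3 a group, SD, 0.5 added to each count). The difference of -0.99 was smaller than the spread of the sham mice (two-sided exact permutation test, p = 0.8, where 3 mice against 3 cannot go below 0.1). Without mouse 2, which had 0 counts of the 3p arm, the difference turned to 0.81.

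The arms of miR-532 were the only pair of members with enough counts to ask whether they moved together. Across the 6 mice, log2(CPM + 0.5) of miR-532-5p and miR-532-3p had a Pearson r of 0.30 (exact permutation p = 0.625) and a Spearman rho of 0.37 (exact permutation p = 0.497). With a single pair, adjustment leaves these p-values as they are. Without mice 4 and 5, which were farthest from the median of miR-532-5p, r was -0.20. Taken as deviations from the mean of each group, r was -0.38. The groups differed in this. Both arms ran in the same order in Acu/LFES mice 5, 4 and 6. There miR-532-5p was at 317 CPM, 300 CPM and 188 CPM, and miR-532-3p at 83.3 CPM, 43.2 CPM and 37.5 CPM. In sham mice 2, 1 and 3 the orders were opposite, at 140 CPM, 127 CPM and 96.0 CPM against 0 CPM, 20.2 CPM and 69.5 CPM. Sham mouse 2 had 0 counts of miR-532-3p. The r of 0.30 over all mice depended on mouse 3, without which r was 0.69. The median r over all 33411 pairs of tested miRNAs was -0.0089. Co-movement of the arms was not detectable with these mice.

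**Figure D3:**
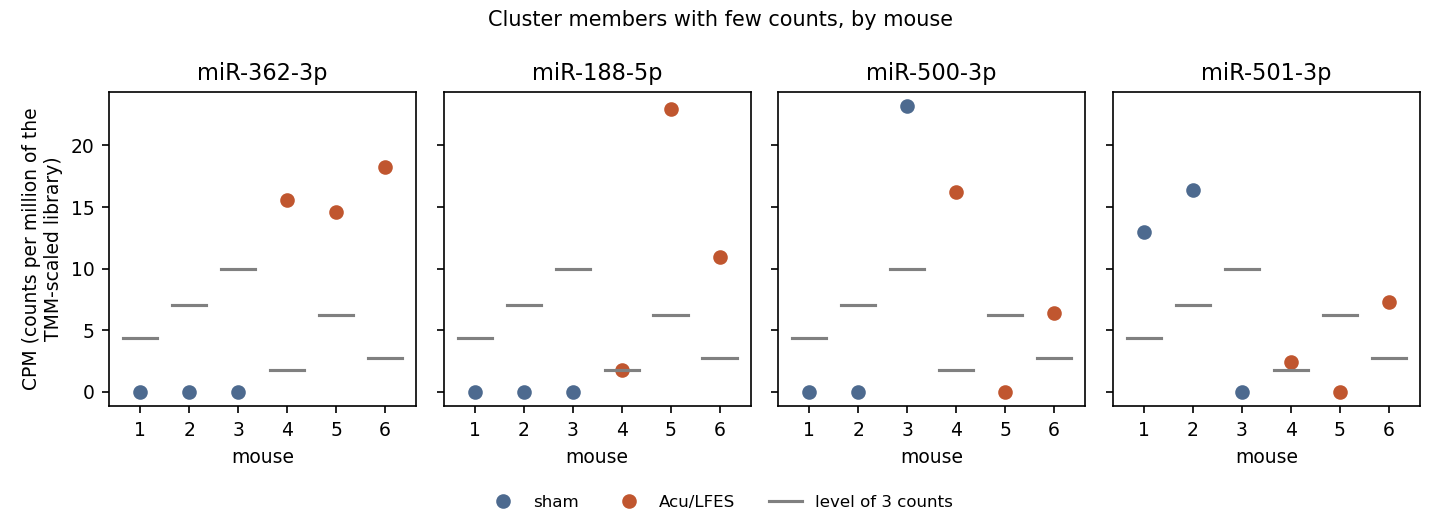
CPM of the 4 members with few counts in each mouse, sham mice 1 to 3 and Acu/LFES mice 4 to 6, with a grey line at the level of 3 counts in that library. miR-362-3p and miR-188-5p are at 0 in the sham mice, and miR-500-3p and miR-501-3p are at 0 in mice of both groups.

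miR-362-3p and miR-188-5p were counted in each Acu/LFES mouse and in no sham mouse. For miR-362-3p the counts in Acu/LFES mice 4, 5 and 6 were 26, 7 and 20, which gave an even level of 15.6 CPM, 14.6 CPM and 18.3 CPM. For miR-188-5p the counts were 3, 11 and 12, and its level was uneven, with 1.80 CPM, 22.9 CPM and 11.0 CPM. In these counts the proportion of the cluster mates differed from mouse to mouse, but the counts are few and the difference was not tested. In mouse 4 miR-362-3p was well above miR-188-5p, and in mouse 5 the order was the opposite.

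The sham libraries were mostly smaller, so their 0 counts allow some expression. A level of 3 counts corresponds to 4.33 CPM, 7.01 CPM and 9.93 CPM in sham mice 1, 2 and 3. The mean of the Acu/LFES mice was 1.63 times the highest of these levels for miR-362-3p and 1.20 times for miR-188-5p. These levels allow for counting error only, so the values are not lower bounds on a difference. miR-532-3p had 0 counts in sham mouse 2, which would have held 23.4 at its mean Acu/LFES level. The value of miR-188-5p rested on mouse 5. Without mouse 5 its mean was 6.39 CPM, below the 9.93 CPM of mouse 3, and in mouse 4 it was itself at the 3 counts. At the mean Acu/LFES level, the sham libraries would have held 11.2, 6.91 and 4.88 counts of miR-362-3p and 8.24, 5.09 and 3.59 counts of miR-188-5p. Neither had enough counts to be tested by the filter that was used. Of the 954 rows with a count, 2.73% showed the same pattern of counts in each Acu/LFES mouse and in no sham mouse, and 0 rows showed the opposite. The larger effective libraries of Acu/LFES mice 4 and 6 move with this pattern, and their part in it was not tested.

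miR-500-3p and miR-501-3p had counts in both groups and no common direction. miR-500-3p had 0, 0 and 7 counts in sham mice 1, 2 and 3 and 27, 0 and 7 in Acu/LFES mice 4, 5 and 6. miR-501-3p had 9, 7 and 0 counts with sham and 4, 0 and 8 with Acu/LFES. In the sham mice a library had counts of the one or of the other, not of both. In mouse 5 both were at 0, although miR-532-5p was highest there. Since their sequences are close, the counts were also added, which gave 13.0 CPM, 16.4 CPM and 23.2 CPM with sham and 18.6 CPM, 0 CPM and 13.7 CPM with Acu/LFES. The sum was 17.5 ± 5.19 CPM for sham against 10.8 ± 9.64 CPM for Acu/LFES (n = 3 a group, SD), and the groups overlapped.

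A proportion to miR-532-5p needs no library scaling, and it sets the cluster mates side by side. For each 100 counts of miR-532-5p, the Acu/LFES mice together had 17.8 counts of miR-532-3p and the sham mice 19.8. The sham value joined mice that were far apart, at 15.9, 0 and 72.4 in mice 1, 2 and 3, and it was 9.46 without mouse 3 and 29.9 without mouse 2. For miR-362-3p these values were 6.18 and 0, and for miR-188-5p 3.03 and 0. For miR-500-3p they were 3.96 and 3.95, where all the sham counts came from mouse 3. For miR-501-3p they were 1.40 and 9.04, and for these members added together 5.36 and 13.0. Had the sham mice kept the Acu/LFES proportions, their 177 counts of miR-532-5p would have come with 10.9 counts of miR-362-3p, 5.36 of miR-188-5p and 9.49 of the added pair, where 0, 0 and 23 were counted. The Acu/LFES proportions also differed by mouse, and mouse 4 gave 500 of the 858 counts of miR-532-5p. In mice 4, 5 and 6 they were 5.2, 4.61 and 9.71 for miR-362-3p and 0.6, 7.24 and 5.83 for miR-188-5p. For the added pair they were 6.2, 0 and 7.28. The values rest on small counts summed over mice, and they were not tested.

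Sham mice 1, 2 and 3 had counts on 3, 2 and 3 members and Acu/LFES mice 4, 5 and 6 on 6, 4 and 6 members. The whole table had counts on 453, 388 and 338 rows in the sham libraries and on 666, 489 and 533 rows in the Acu/LFES libraries. In both counts each Acu/LFES library was above each sham library.

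Among the 257 tested miRNAs from outside the cluster, those whose log2(CPM + 0.5) over the 6 mice was most like that of the summed members were miR-181d-5p (r = 0.97), miR-17-5p (r = 0.92), miR-34a-5p (r = 0.91), miR-148b-3p (r = 0.88) and miR-423-3p (r = 0.87). They were picked as the highest r, on points that share libraries and scaling, and r is a description. miR-181d-5p was at 110 CPM, 98.2 CPM and 96.0 CPM in sham mice 1, 2 and 3 and at 205 CPM, 238 CPM and 174 CPM in Acu/LFES mice 4, 5 and 6. Like the summed members, it was higher in each Acu/LFES mouse than in each sham mouse, with mouse 5 highest. Its log2 fold change was 1.01 with a standard error of 0.40 (adjusted p = 0.518 in edgeR's quasi-likelihood test). miR-34a-5p was at 0 in each sham mouse and at 15.6 CPM, 33.3 CPM and 32.0 CPM in Acu/LFES mice 4, 5 and 6.

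**Figure D4:**
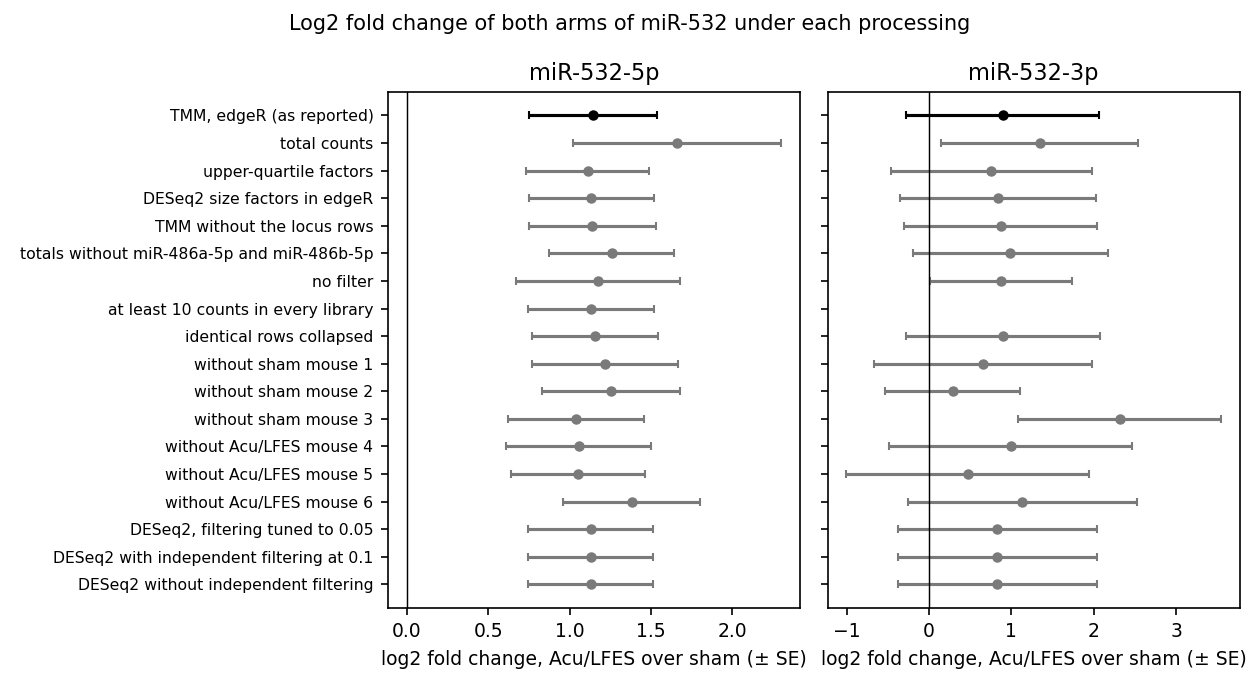
Log2 fold change of Acu/LFES over sham (horizontal axis) with its standard error for miR-532-5p (left) and miR-532-3p (right), fitted with each scaling, filter and test and without each mouse in turn. All values of miR-532-5p lie between 1.04 and 1.66, and those of miR-532-3p between 0.29 and 2.32, with no value for miR-532-3p where 10 counts were asked of every library.

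The plot of log2 fold change by processing shows both arms of one hairpin. With TMM and the filter, the log2 fold change was 1.14 for miR-532-5p and 0.90 for miR-532-3p. Their standard errors were 0.39 and 1.17, so the plot does not show a difference in response between the arms. The log2 fold change of miR-532-5p was 1.66 with total counts, where the median of all miRNAs tested was 0.71, and 1.18 without a filter on low counts, where that median was 0.68. Relative to these medians miR-532-5p was higher by 0.95 and by 0.49, against 1.09 with TMM and the filter. The values of miR-532-3p kept a positive sign, but most of their standard errors reached 0 or beyond.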

How the data were processed

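The table holds the counts as the authors deposited them, not normalised, with a column for each mouse. The submitters' processing notes name cutadapt 1.6 and DESeq2 1.26.0. The aligner, the miRNA annotation and the mismatches allowed are not given in the sources used here. Members, marker lists and tests were chosen with earlier results of these data known. The miRNAs named are the members, the other arms of their hairpins, rows that share a seed, the markers and the 5 miRNAs most like the summed members.

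Libraries were scaled by TMM and compared by the quasi-likelihood test of edgeR 4.0.16 (R 4.3.3). Its default filter kept 259 of 954 rows with a count. Adjusted p-values are Benjamini and Hochberg's, called under 0.05. The standard error was taken from the F statistic. Ratios and correlations were tested by two-sided exact permutation (scipy 1.17.1). DESeq2 1.42.0, other scalings and filters, and each mouse left out in turn were alternatives. Scripts were tested on simulated data. No libraries agreed within sampling noise. All sham and all Acu/LFES mice are separate animals. Figures were drawn with matplotlib 3.10.9.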

Additional observations from a re-analysis of the deposited data

How the results depend on the processing

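No paired analysis was possible because the mouse numbers are not shared between the groups. The log2 fold changes of miR-532-5p and miR-532-3p were positive in each alternative. 0 members had an adjusted p under 0.05 in edgeR in any alternative. In DESeq2 with its filter set for 0.05, 1 member did. DESeq2 then called 9 of the 138 miRNAs given an adjusted p, and miR-532-3p was given none. Adjusted p of miR-532-5p ranged from 0.0496 to 0.592. Without a filter on low counts, 3 of the 6 members tested had an unadjusted p under 0.05, among 53 of the 954 rows tested. With the filter it was 1 of 2 members, among 23 of 259 rows. The added members were miR-362-3p and miR-188-5p, which had 0 counts in each sham mouse. With any one mouse left out, 1 to 2 of the 3 to 5 members then tested had an unadjusted p under 0.05 in edgeR. The default filter keeps more rows when a mouse is left out. Any member past that level besides miR-532-5p was miR-362-3p or miR-188-5p, both at 0 in each sham mouse. These 2 passed the filter through their Acu/LFES counts alone, so their p-values add no support. Among all rows tested, 48 of 303 were past that level without sham mouse 1, 27 of 309 without mouse 2 and 23 of 311 without mouse 3. Without Acu/LFES mice 4, 5 and 6 in turn, these were 25 of 307, 32 of 306 and 19 of 271. With total counts the summed members differed by 1.64, and of the miRNAs past an unadjusted 0.05, 23 of 23 were higher. This was 15 of 23 with TMM and 20 of 26 with totals without miR-486a-5p and miR-486b-5p. Leaving out each mouse moved the difference of the summed members between 0.96 and 1.32, that of the arm ratio between -2.43 and 0.81, and r of the arms between 0.18 and 0.69. As deviations from group means r was -0.38. The cause of these changes was not tested. Arm ratios of Mir362 and Mir501 were not run, since their 5p arms had 0 counts. Asking 10 counts of every library left no value for miR-532-3p.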
